A study of Homo sapiens with 8 samples.

Results

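The regions described here are the called ChIP-seq regions that overlap fixed windows at the 4 HOX gene clusters of the human genome. They were chosen by position alone: a region counted as a member when it overlapped, by at least 1 bp, one of 4 windows on hg19. The windows were HOXA on chromosome 7 (27100000 to 27300000, 200 kb), HOXB on chromosome 17 (46580000 to 46830000, 250 kb), HOXC on chromosome 12 (54300000 to 54470000, 170 kb) and HOXD on chromosome 2 (176920000 to 177080000, 160 kb). Of the 972037 regions in the 3 deposited lists, 300 were members: 97 of the 262109 TEAD4 regions from SB431542 cells, 76 of the 289380 TEAD4 regions from DMSO cells and 127 of the 420548 SMAD2 regions from DMSO cells. By cluster, HOXA held 77 of them, HOXB 101, HOXC 67 and HOXD 55.

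The cells of all groups were WA09, a long-established line of human embryonic stem cells, kept on Matrigel in medium conditioned by mouse feeder cells. Treated cells received SB431542, an inhibitor of the activin, Nodal and TGF-β type I receptors, at 10 µM for 4 h, and control cells received the solvent DMSO for 4 h. Chromatin was fixed with formaldehyde, sheared by sonication and precipitated with an antibody to TEAD4 (treated and control cells) or to SMAD2 (control cells only, among the lists used here). Each group was 1 library of 1 cell line, so that no value has a replicate error and no difference was tested. Intervals reflect the counting of regions and nothing else.

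HOX genes encode homeodomain transcription factors that set the identity of body segments along the head-to-tail axis, and their order along each cluster follows the order in which they act along that axis. In embryonic stem cells the clusters are largely silent, are covered by Polycomb complexes, and carry activating and repressing histone marks together. SMAD2 is phosphorylated by the receptors that SB431542 blocks and then enters the nucleus with SMAD4. TEAD4 binds DNA as the partner of YAP and TAZ, the effectors of the Hippo pathway. The 4 clusters hold 39 protein-coding HOX genes in the RefSeq gene table. Along the chromosome, HOXB runs upward from HOXB1 to HOXB13 (10 genes). HOXC runs upward from HOXC13 to HOXC4 (9 genes) and HOXD from HOXD13 to HOXD1 (9 genes). That table is on GRCh38, so it was used for names and gene order only, and no region is placed in an exon, intron or promoter. Whether a member lies among the HOX genes of its window or beside them was likewise not determined.

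The lists hold positions and no score. In each of them the widths fell down the rows, with medians of 198 bp in the first 10% of rows and 106 bp in the last 10% for TEAD4 in SB431542, 299 and 99 bp for TEAD4 in DMSO, and 249 and 99 bp for SMAD2. Row number is therefore given as the place in the list, low rows first, although no source states what orders the rows. The lists were not made alike: 100% of the starts of both DMSO lists fell on multiples of 50 bp, against 1.97% in the SB431542 list. A TEAD4 difference between SB431542 and DMSO cells cannot be told apart from this difference in list making.

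Over the 4 clusters together, TEAD4 regions of SB431542 cells were more numerous than in moved windows, whereas the counts of both DMSO lists had intervals that include the moved mean. Each window was compared with windows of its own size moved along the same chromosome in steps of its size, and windows without a region of any list were left out. For TEAD4 in SB431542 cells the 97 members were 1.34 times the 72.5 that the moved windows averaged over the 4 sizes (95% exact binomial interval 1.08 to 1.63). For TEAD4 in DMSO cells the 76 members were 0.983 times the 77.3 of the moved windows (0.774 to 1.23). For SMAD2 in DMSO cells the 127 members were 1.10 times the moved 115.9 (0.913 to 1.30). These intervals treat neighbouring regions as independent. The gap between the TEAD4 lists was narrower under other counts. In the first 50% of rows the ratios were 1.21 (44 regions) for TEAD4 in SB431542, 1.18 (47) for TEAD4 in DMSO and 1.00 (58) for SMAD2. By bases covered they were 1.29, 1.18 and 1.08.

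**Figure D1:**
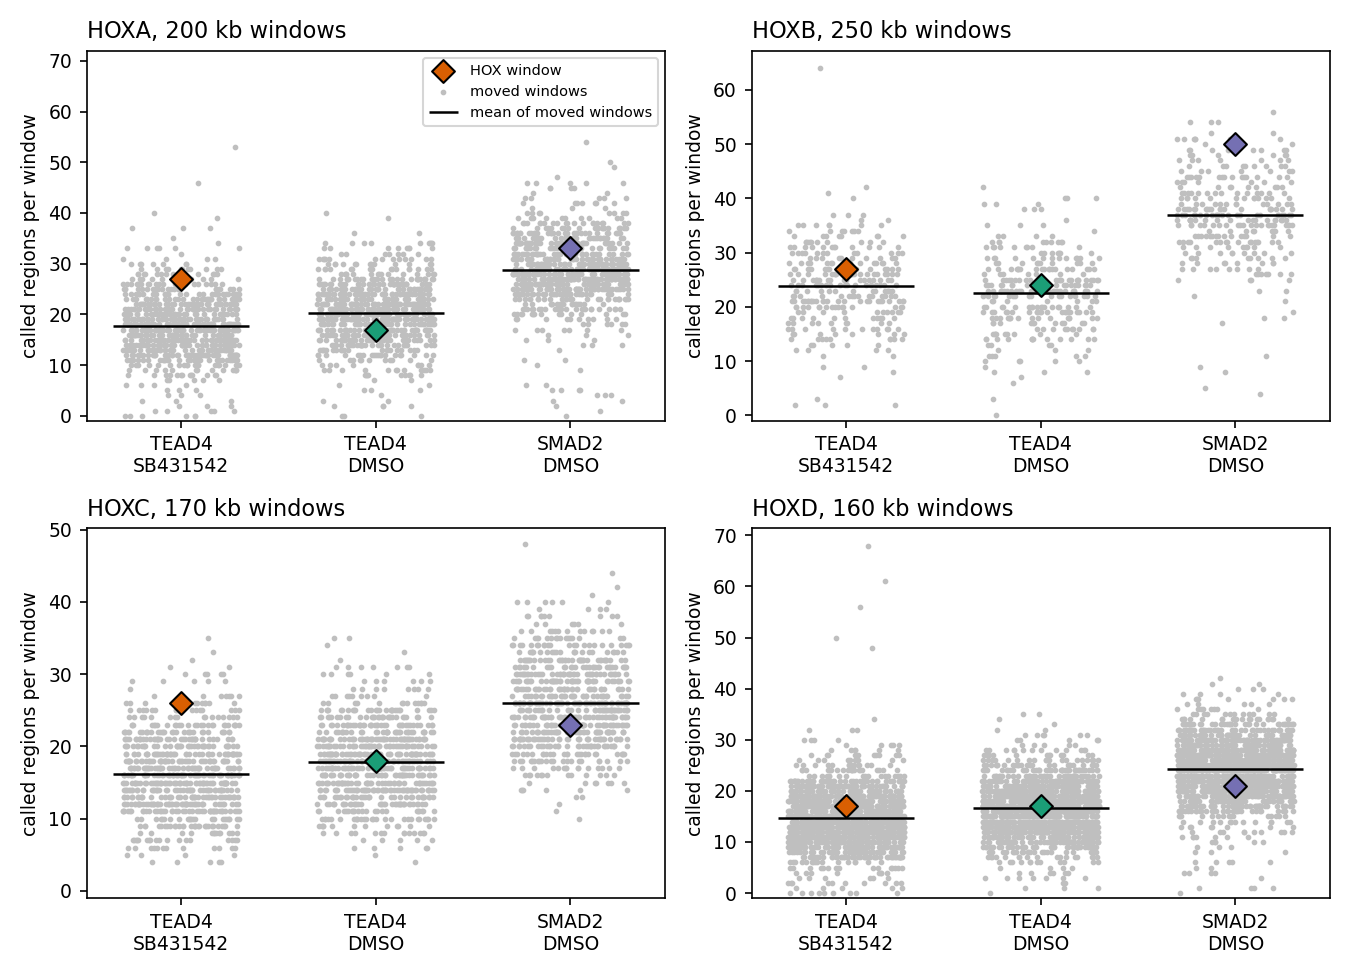
Called regions per window (y axis) in each HOX window (diamond), in the same-size windows moved along its chromosome (grey points) and as the mean of those windows (line), for the 3 lists (x axis). TEAD4 under SB431542 in HOXA and HOXC (27 and 26 regions) and SMAD2 in HOXB (50 regions) lie high among their windows, and the other diamonds lie near the line.

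By cluster, TEAD4 under SB431542 was furthest above the moved mean in HOXC. HOXC held 26 regions (15.3 per 100 kb), against a mean of 16.2 in 768 moved windows, a ratio of 1.60 (1.05 to 2.35), and 33 windows (4.30%) held as many or more. HOXA held 27 regions (13.5 per 100 kb), against a mean of 17.8 in 779 windows, a ratio of 1.52 (1.00 to 2.21), and 61 windows (7.83%) held as many or more. HOXB with 27 regions (ratio 1.14, 0.749 to 1.65) and HOXD with 17 (ratio 1.15, 0.671 to 1.84) were closer to their chromosomes, where 34.6% and 34.8% of the windows held as many or more.

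TEAD4 in DMSO cells stayed near the chromosome mean in each cluster. HOXA held 17 regions against a moved mean of 20.4 (ratio 0.835, 0.486 to 1.34), and 31.1% of windows held as few or fewer. HOXB held 24 (ratio 1.07), HOXC 18 (1.01) and HOXD 17 (1.03), and in these 3 clusters between 44.2% and 52.7% of the moved windows held as many or more.

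SMAD2 was furthest above the moved mean in HOXB. HOXB held 50 SMAD2 regions (20.0 per 100 kb), against a mean of 36.9 in 312 moved windows, a ratio of 1.36 (1.01 to 1.79), and 15 windows (4.81%) held as many or more. HOXA held 33 SMAD2 regions (ratio 1.15, 0.789 to 1.61). HOXC held 23 (0.883, 0.560 to 1.32) and HOXD 21 (0.867, 0.537 to 1.33), below the mean in both cases, although 35.5% and 29.9% of their windows held as few or fewer. Of the 12 combinations of cluster and list, none lay outside all of its moved windows. TEAD4 under SB431542 in HOXC and HOXA and SMAD2 in HOXB had the highest ratios of the 12. No allowance was made for that choice.

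The neighbourhood of HOXA was also rich in TEAD4 regions of SB431542 cells. The 5 moved windows on each side of HOXA held 16 to 33 regions (mean 23.2), a range that includes the 27 of the cluster. In the DMSO list the same neighbours held 16 to 33 TEAD4 regions (mean 24.4) and the cluster 17. Around HOXC the neighbours held 14 to 26 regions of the SB431542 list (mean 19.4), so that the 26 of the cluster equalled the highest of them. The 50 SMAD2 regions of HOXB stood above all 10 neighbours, which held 27 to 49.

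**Figure D2:**
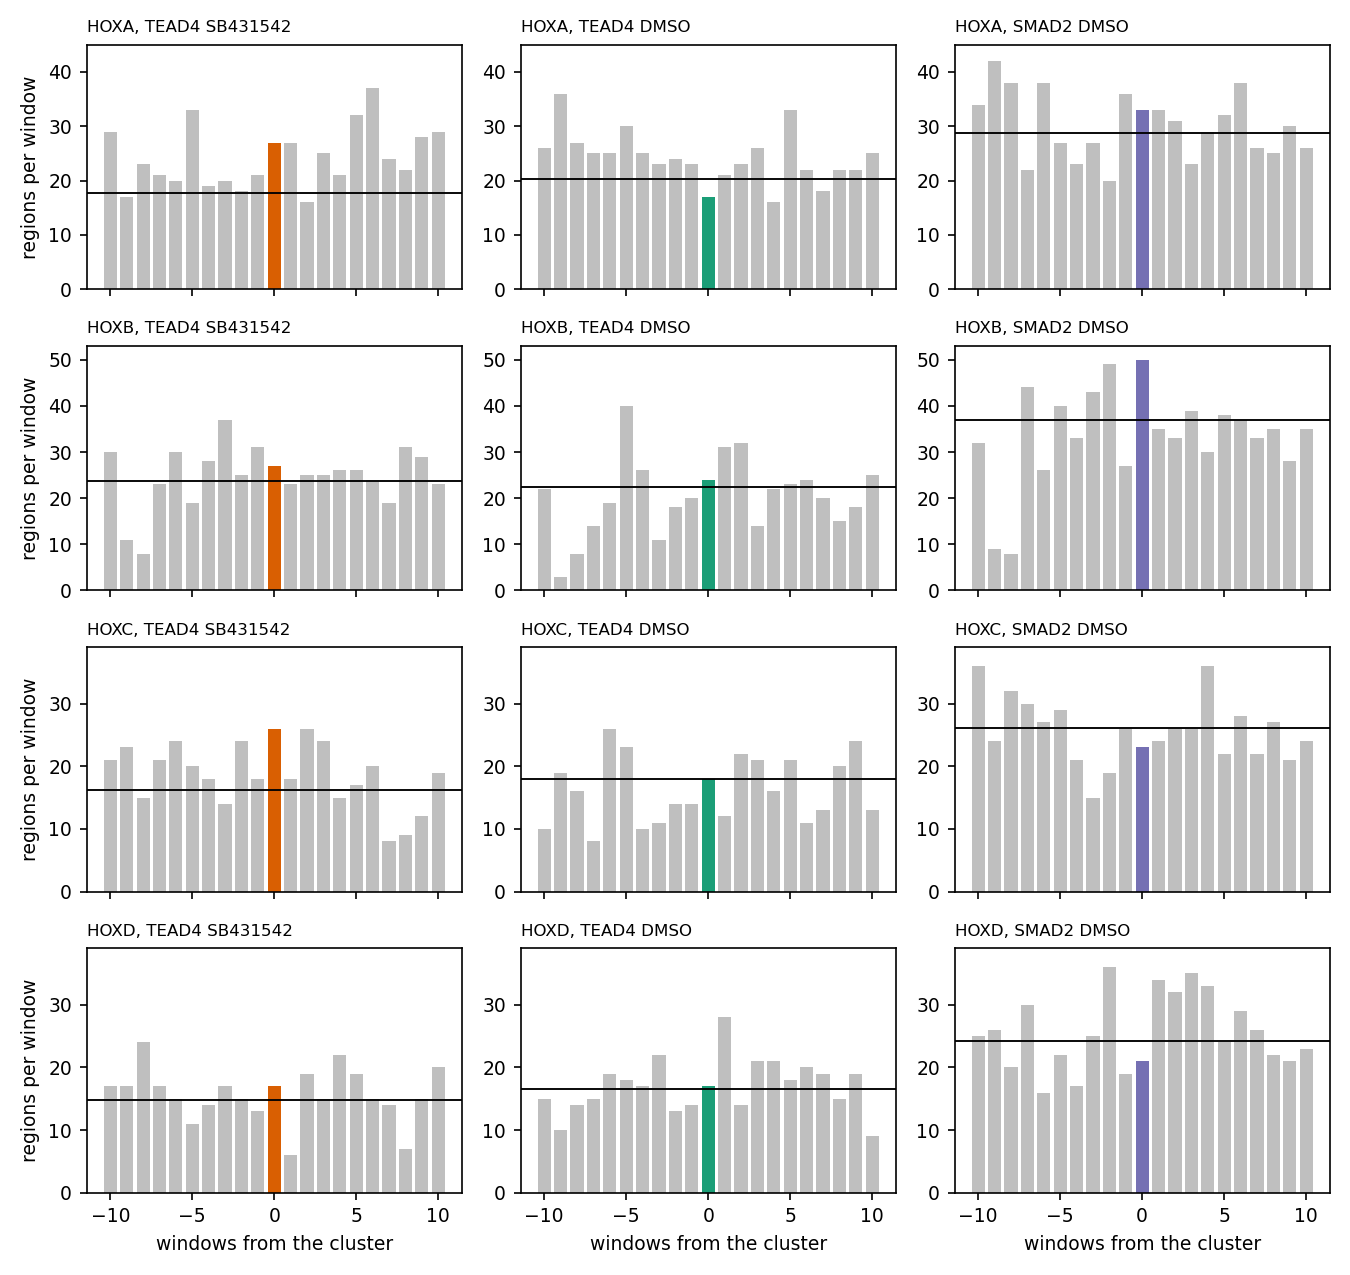
Called regions per window (y axis) in the HOX window (coloured bar, position 0) and in up to 10 windows of the same size on each side (grey bars, x axis in windows), by cluster (rows) and list (columns), with the chromosome mean as a line. A position without a bar is a window with no region of that list or of any list. The HOXB bar for SMAD2 (50 regions) is above every neighbour shown, whereas the HOXA bar for TEAD4 under SB431542 (27 regions) is not.

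The balance between the TEAD4 lists was tilted to SB431542 in HOXA and HOXC. The SB431542 list gave 27 TEAD4 regions in HOXA against 17 from DMSO cells, a ratio of 1.59 (0.835 to 3.11), and 6.95% of moved windows had as high a ratio. HOXC had 26 against 18 (1.44, 0.762 to 2.80), with 14.5% of windows as high, HOXB 27 against 24 (1.12, 0.625 to 2.04) and HOXD 17 against 17 (1.00, 0.480 to 2.08). Over the 4 clusters the ratio was 97 to 76, or 1.28 (0.936 to 1.75), and over the whole lists it was 0.906. Every one of these intervals includes 1. The interval over the 4 clusters lies above the whole-list ratio but includes, at its lower edge, the ratio of the moved means (72.5 to 77.3 regions). On chromosome 17, which carries HOXB, the ratio of the lists was 1.06.

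The members were spread over all rows of their lists. Of the TEAD4 regions from SB431542 cells, 11 of 97 (11.3%, 5.80 to 19.4%) were in the first 10% of rows, where 10.0% of the whole list lies by construction. The same held for 10 of 76 TEAD4 regions from DMSO cells (13.2%, 6.49 to 22.9%) and 13 of 127 SMAD2 regions (10.2%, 5.56 to 16.9%), with 10.0% of each whole list there. The median member lay 53.3% of the way down the SB431542 list (44.0 to 62.1%), 38.9% down the TEAD4 list of DMSO cells (27.2 to 50.6%) and 53.4% down the SMAD2 list (43.5 to 67.5%). A list's own median lies at 50%, which all 3 intervals include, the TEAD4 interval of DMSO cells at its upper edge. For TEAD4 in DMSO the median of chromosome 17, which carries HOXB, was itself at 43.9%, against 39.8% for the HOXB members. On the chromosomes of the other clusters that median lay between 49.2% and 50.5%.

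Within HOXC more TEAD4 regions of SB431542 cells were in the first 10% of rows than the moved windows averaged. Of the 26 regions, 5 (19.2%, 6.55 to 39.4%) were in the first 10% of rows, against a mean of 1.52 in the moved windows, and 3.12% of the windows held as many. Nevertheless the median HOXC region lay 66.1% down the list (41.7 to 87.8%). In the first 50% of rows were 9 of the 26 (17.2 to 55.7%), and both intervals include 50%. In HOXB, 7 of the 50 SMAD2 regions (14.0%, 5.82 to 26.7%) were in the first 10% of rows, against a moved mean of 3.48, and 7.05% of windows held as many. In HOXD, 4 of the 17 TEAD4 regions of DMSO cells (23.5%, 6.81 to 49.9%) were, against a mean of 1.57, and 10.3% of windows held as many. These are the highest shares among the 12 combinations of cluster and list, and their intervals include 10%. The lowest were those of SMAD2 in HOXC (1 of 23) and HOXD (1 of 21), where 91.0% and 91.1% of windows held as many.

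**Figure D3:**
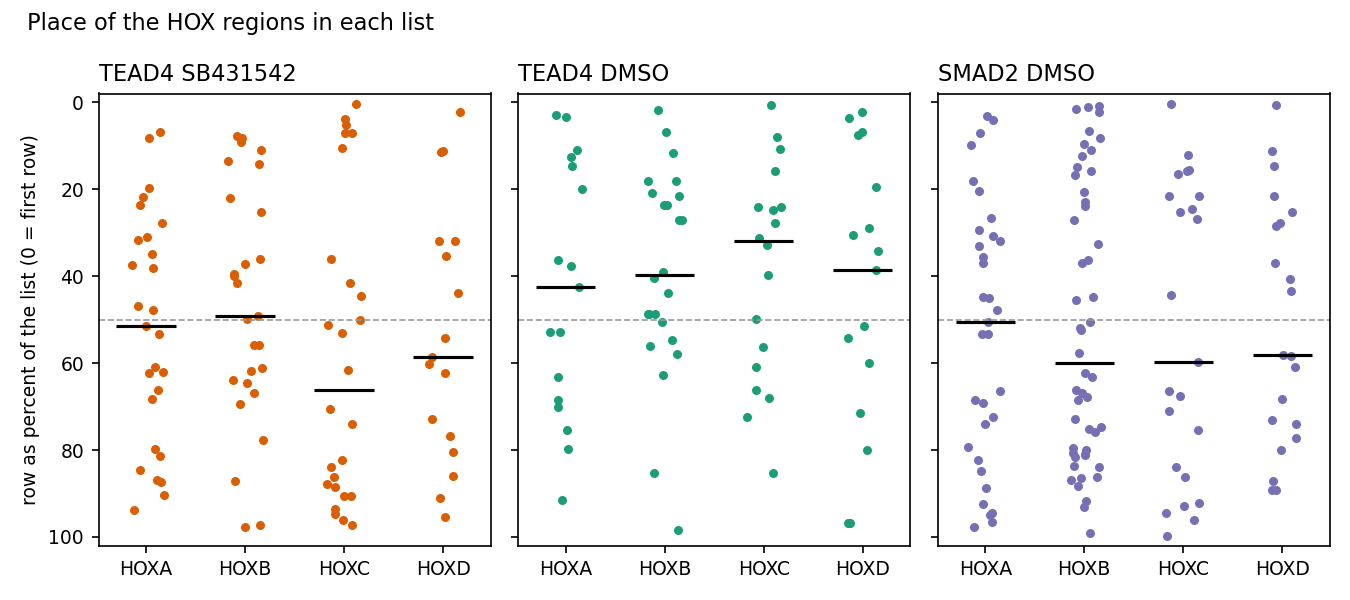
Row of each HOX region as a percent of its list (y axis, first row at the top) by cluster (x axis) and list (panels). Black lines are medians and the dashed line marks 50%. Points cover the whole range in each list, and the 4 medians of TEAD4 in DMSO (32.0 to 42.5%) lie above the dashed line.

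The lowest row of each list in these clusters was in HOXC, at 3 separate places. TEAD4 under SB431542 had row 1314 (0.501% of the list) at 54462327 to 54462535 on chromosome 12, on the side where the gene order has HOXC4. TEAD4 in DMSO had row 1815 (0.627%) at 54308001 to 54308299, on the side of HOXC13. SMAD2 had row 1963 (0.467%) at 54427251 to 54427499. No region of another list overlapped any of these, as for most regions: 10.5% of all 972037 overlapped one. Of the 768 moved windows, 24 (3.12%) had a row as low for TEAD4 in SB431542, 59 (7.68%) for TEAD4 in DMSO and 85 (11.1%) for SMAD2. The next HOXC rows of the TEAD4 lists were neighbours: row 10275 under SB431542 at 54346979 to 54347176 and row 23103 in DMSO at 54347301 to 54347599 did not overlap but were 124 bp apart.

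In HOXD the leading TEAD4 regions of DMSO cells were those called again under SB431542. The lowest DMSO row, 6438 (2.22% of the list), at 177057051 to 177057749 on chromosome 2, contained row 29918 of the SB431542 list at 177057198 to 177057410. The next, row 10431 (3.60%), at 176961951 to 176962199, overlapped row 29285 at 176961850 to 176962143. Row 6438 was 699 bp wide, a width reached by 280 regions (0.0968%) of the TEAD4 list of DMSO cells. The lowest SB431542 row in HOXD, 5746 (2.19%), at 176998927 to 176999124, had no DMSO partner. The lowest SMAD2 row was 2430 (0.578%) at 176925951 to 176926199, at the HOXD13 side of the window. None of the 21 SMAD2 regions of HOXD overlapped a TEAD4 region of either treatment. Over the whole SMAD2 list, 5.29% overlapped TEAD4 of DMSO cells and 3.39% TEAD4 of SB431542 cells. For each treatment, 0 of 21 allows a share of up to 16.1% (upper exact bound), which includes the whole-list share.

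In HOXA the lowest rows were further down. They were row 18083 (6.90%) at 27169152 to 27169319 on chromosome 7 for TEAD4 in SB431542, row 8624 (2.98%) at 27128151 to 27128449 for TEAD4 in DMSO and row 13349 (3.17%) at 27172651 to 27172899 for SMAD2. Between 46.3% and 66.4% of the moved windows had a row as low in the same list. In HOXB they were row 20197 (7.71%) at 46816282 to 46816479 on chromosome 17 for TEAD4 in SB431542, row 5226 (1.81%) at 46807201 to 46807449 for TEAD4 in DMSO and row 3701 (0.880%) at 46650101 to 46650349 for SMAD2. In the same order of lists, 80.1%, 38.5% and 25.3% of the moved windows had a row as low. The next SMAD2 row of HOXB was 4716 (1.12%) at 46812101 to 46812349. At the other end, the last members lay between 85.4% (TEAD4 in DMSO, HOXC, row 247100) and 99.8% (SMAD2, HOXC, row 419846) of the way down their lists.

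TEAD4 regions of SB431542 and DMSO cells met at 7 places in the 4 clusters. Of the 97 SB431542 regions, 7 (7.22%, 2.95 to 14.3%) overlapped a DMSO region, against 6.39% of the whole list. Of the 76 DMSO regions, 7 (9.21%, 3.78 to 18.1%) overlapped an SB431542 region, against 5.69% of the whole list. HOXB had 3 of these places, HOXA and HOXD 2 each, and HOXC 0 of 26 SB431542 regions, which allows a share of up to 13.2% (upper exact 95% bound). Both intervals over the 4 clusters include the whole-list share.

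Outside HOXD the DMSO regions of the TEAD4 pairs lay further down their list. In HOXA, row 139814 of the SB431542 list at 27167943 to 27168080 overlapped row 123025 of the DMSO list at 27167801 to 27167999. Row 236630 at 27131759 to 27131872 lay inside the 699 bp DMSO region of row 152887 at 27131451 to 27132149. In HOXB, row 23958 (9.14% of the SB431542 list) at 46684141 to 46684338 overlapped row 158058 at 46684151 to 46684399. Row 97449 at 46598026 to 46598159 overlapped row 62567 at 46598101 to 46598299, and row 256332 at 46690731 to 46690832 lay within row 126884 at 46690601 to 46690849. No place had a row in the first 10% of both lists.

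TEAD4 and SMAD2 regions of DMSO cells met at 8 places. Of the 76 TEAD4 regions, 8 (10.5%, 4.66 to 19.7%) overlapped SMAD2, against 7.67% of the whole list. Of the 127 SMAD2 regions, 8 (6.30%, 2.76 to 12.0%) overlapped TEAD4, against 5.29% of the whole list. HOXB had 4 of these places, HOXA 3, HOXC 1 and HOXD 0. Both intervals over the 4 clusters again include the whole-list share.

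The best placed of these pairs was in HOXB, where TEAD4 row 34283 (11.8%) at 46759401 to 46759799 overlapped SMAD2 row 9902 (2.35%) at 46759301 to 46759549. The next HOXB pair was TEAD4 row 52769 at 46749751 to 46750249, the widest TEAD4 region of DMSO cells in HOXB (499 bp), with SMAD2 row 40509 at 46750151 to 46750399. TEAD4 row 78734 at 46623551 to 46623749 contained SMAD2 row 188081 at 46623601 to 46623749. In HOXA, TEAD4 row 42346 at 27254251 to 27254499 met SMAD2 row 41634 at 27254451 to 27254699, and TEAD4 row 31471 at 27145001 to 27145499 contained SMAD2 row 112460 at 27145301 to 27145449. The HOXA pair of TEAD4 row 197916 at 27233451 to 27233599 and SMAD2 row 357210 at 27233401 to 27233499 lay far down both lists. HOXC had TEAD4 row 69426 at 54379901 to 54380249 with SMAD2 row 316546 at 54380201 to 54380299.

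The nearest approach to a place called in all 3 lists was in HOXB. The TEAD4 region of DMSO cells at 46690601 to 46690849 (row 126884) overlapped both the SB431542 region of row 256332 and the SMAD2 region of row 385917 at 46690551 to 46690649. The SB431542 and SMAD2 regions were themselves 81 bp apart, and both lay in the last 10% of their lists.

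TEAD4 under SB431542 met SMAD2 of DMSO cells at 3 places: 3 of 97 TEAD4 regions (3.09%, 0.642 to 8.77%), against 5.46% of the whole list, and 3 of 127 SMAD2 regions (2.36%, 0.490 to 6.75%), against 3.39%. They were row 57900 at 46816855 to 46817024 in HOXB (SMAD2 row 352436, 46816901 to 46816999), and rows 131186 and 116973 in HOXC. The HOXC regions lay at 54386426 to 54386577 (SMAD2 row 90829, 54386301 to 54386449) and 54433594 to 54433726 (SMAD2 row 397672, 54433551 to 54433649). Over the 3 lists, 35 of the 300 members (11.7%, 8.26 to 15.9%) overlapped a region of another list, against 10.5% of all 972037 regions.

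Many TEAD4 regions of DMSO cells in HOXB lay on or close to a SMAD2 region. Of the 24 TEAD4 regions of DMSO cells in HOXB, 15 (62.5%, 40.6 to 81.2%) lay within 1 kb of a SMAD2 region, against 34.2% of the whole list. Among the 304 moved windows with at least 10 such TEAD4 regions the mean was 35.1%, and 3 windows (0.987%) reached 62.5%. Overlapping regions count as within 1 kb here: 4 of the 15 overlapped SMAD2 and 11 did not. In the other direction the share stood out less, since 17 of the 50 SMAD2 regions of HOXB (34.0%, 21.2 to 48.8%) lay within 1 kb of TEAD4 in DMSO, and 10.4% of 308 windows reached that share. TEAD4 of SB431542 cells was within 1 kb of SMAD2 in 12 of 27 HOXB regions (44.4%, 25.5 to 64.7%), a share that 12.5% of 304 windows reached. HOXB is also where SMAD2 regions were densest, at 20.0 per 100 kb, and the part of this density in the closeness was not tested. In the other clusters the share of TEAD4 regions of DMSO cells near SMAD2 was 29.4% (HOXA), 27.8% (HOXC) and 41.2% (HOXD), and over the 4 clusters it was 32 of 76 (42.1%, 30.9 to 54.0%). All 6 shares within 1 kb over the 4 clusters, this one among them, had intervals that include the whole-list value. Of the TEAD4 regions of SB431542 cells, 27 of 97 (27.8%) were that close to TEAD4 of DMSO cells, against 24.5% of the list, and 33 of 97 (34.0%) to SMAD2, against 31.5%. Of the TEAD4 regions of DMSO cells, 23 of 76 (30.3%) were that close to TEAD4 of SB431542 cells, against 22.4%. Of the SMAD2 regions, 32 of 127 (25.2%) were that close to TEAD4 of SB431542 cells, against 20.4%, and 36 of 127 (28.3%) to TEAD4 of DMSO cells, against 24.0%.

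The distance of 1 kb was chosen after the values had been seen. The HOXB share of 62.5% is the highest of the 24 shares (by cluster, pair and direction) that were computed at 1 kb. Within 500 bp of SMAD2 lay 10 of the 24 TEAD4 regions of DMSO cells in HOXB (41.7%, 22.1 to 63.4%). The whole-list share at 500 bp was 22.1%, at the lower end of that interval.

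**Figure D4:**
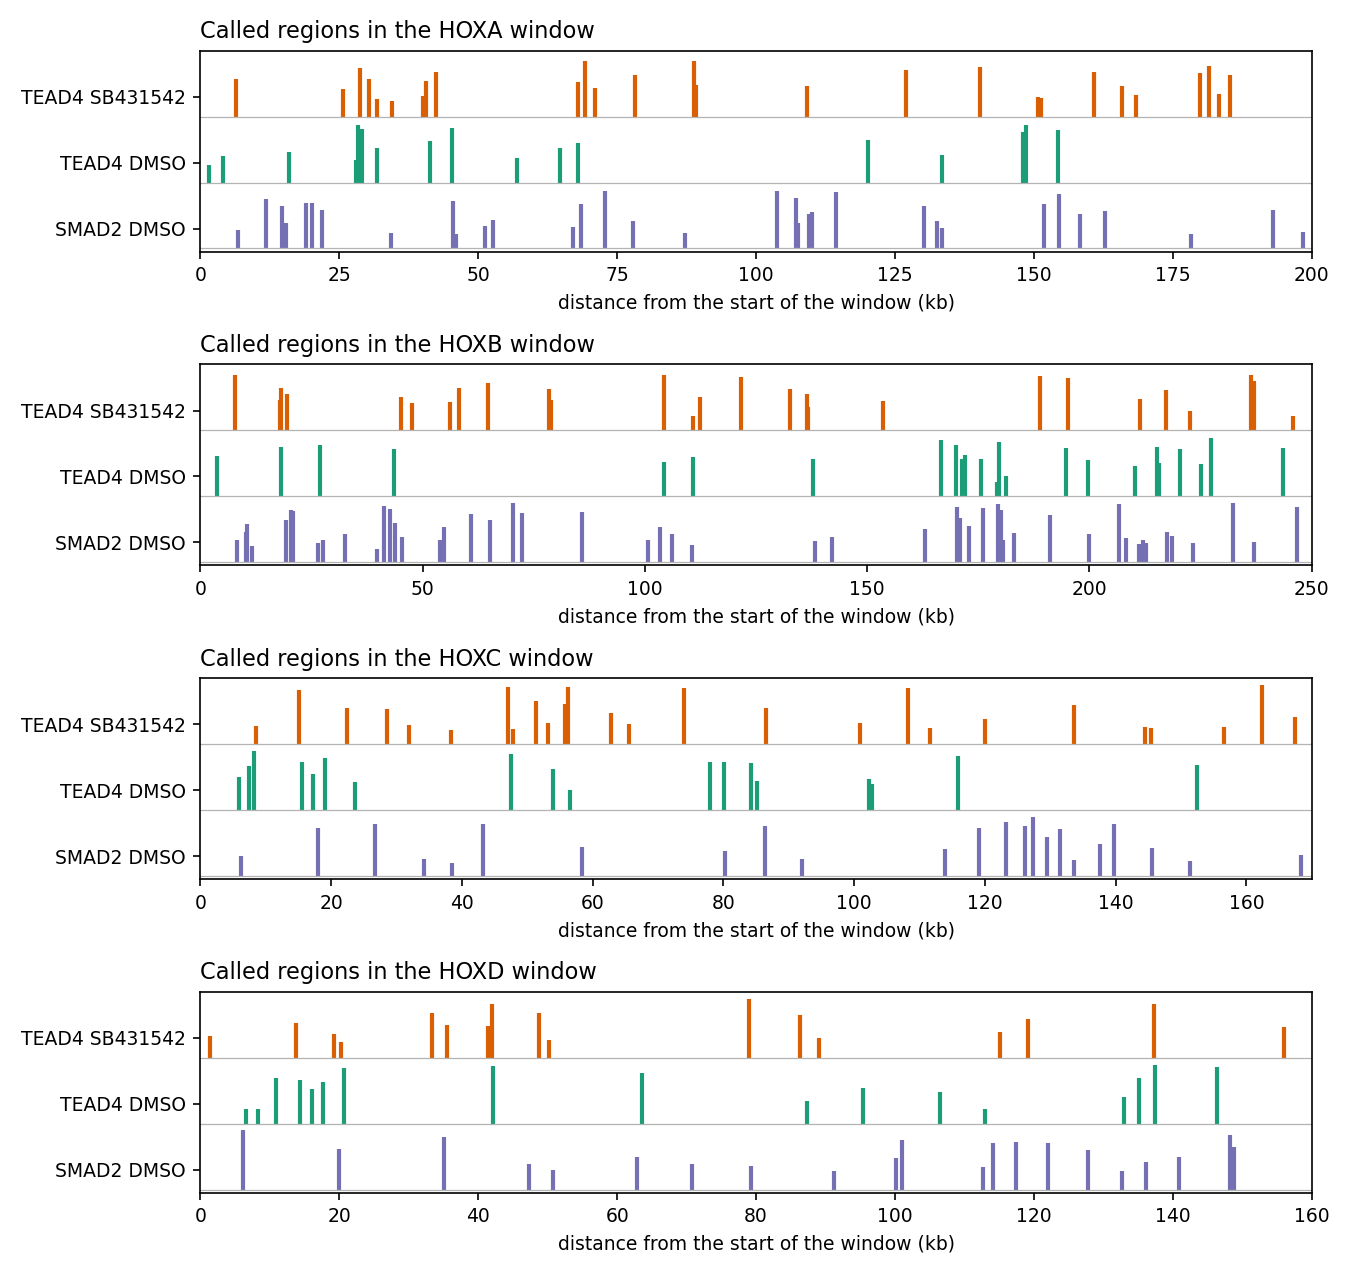
Called regions of the 3 lists along each HOX window (x axis, distance in kb from its start). A bar marks a region's centre and is taller the earlier its row, from about 20% of the lane height for the last row to 90% for the first. In HOXB, the stretch from about 166 to 181 kb holds TEAD4 and SMAD2 regions of DMSO cells and no TEAD4 region of SB431542 cells.

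Of the 15 TEAD4 regions of DMSO cells within 1 kb of SMAD2 in HOXB, 7 lay in a single stretch. The 20 kb with the most TEAD4 regions of DMSO cells in HOXB began at 46746351 and held 8 of them, the last ending at 46761299. The same 20 kb held 8 SMAD2 regions and 0 TEAD4 regions of SB431542 cells. It lay inside the longest stretch of HOXB without an SB431542 region, 46733533 to 46768717 (35.2 kb), in which 8 TEAD4 and 9 SMAD2 regions of DMSO cells had their centres. A stretch of 20 kb with as many TEAD4 regions of DMSO cells occurred in 41 of 312 moved windows (13.1%), and an SB431542-free stretch as long in 59.0% of them. Of the 108 windows with at least 27 SB431542 regions, 37 had an SB431542-free stretch as long.

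The reverse arrangement was seen between the start and the middle of HOXB. From 46623750 to 46684150 (60.4 kb) there was no TEAD4 region of DMSO cells, whereas 7 of SB431542 cells and 10 of SMAD2 had their centres there. A stretch as long occurred in 17.6% of moved windows, and in 9 of the 138 with at least 24 TEAD4 regions of DMSO cells. Accordingly 6 of the 24 TEAD4 regions of DMSO cells lay below the middle of the HOXB window, on the HOXB1 side, and 18 above it. The 27 regions of SB431542 cells divided 15 to 12 and the 50 of SMAD2 26 to 24.

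HOXA and HOXC also held long stretches without a TEAD4 region of DMSO cells. In HOXA the stretch ran from 27168000 to 27220050 (52.1 kb) and held 7 SB431542 and 10 SMAD2 centres. One as long occurred in 16.6% of moved windows, and in 55 of the 581 with at least 17 TEAD4 regions of DMSO cells. In HOXC it ran from 54415950 to 54452300 (36.4 kb) and held 4 SB431542 centres and 11 of the 23 SMAD2 centres of the cluster. That length was more common, in 43.4% of moved windows and in 97 of the 405 with at least 18 TEAD4 regions of DMSO cells. The SMAD2 regions there included the leading one, row 1963.

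The TEAD4 regions of SB431542 cells left no long gap in HOXC. The longest was 14.3 kb (54386578 to 54400879), and all 768 moved windows had a longest gap at least as long, with a median of 34.1 kb. In the 33 moved windows with at least 26 such regions the longest gap was 16.1 kb or more. In the same cluster 20 kb from 54346979 held 8 SB431542 regions against 3 TEAD4 regions of DMSO cells, and 4.56% of moved windows had a stretch as full. HOXA had a similar one from 27125574, with 8 SB431542 and 6 DMSO TEAD4 regions and 2 of SMAD2, and 4.62% of windows had one as full in the SB431542 list. This stretch held the leading TEAD4 region of DMSO cells in the cluster, row 8624.

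In HOXD the longest gaps of both DMSO lists were shorter than in most moved windows. The longest gap was 23.4 kb for TEAD4, with 87.9% of moved windows as long, and 14.9 kb for SMAD2, with 94.7% as long. Of the 737 windows with at least 17 TEAD4 regions of DMSO cells, 568 had a gap as long. For SMAD2 it was 1053 of the 1131 windows with at least 21 regions. The densest 20 kb of TEAD4 in DMSO began at 176926551, on the HOXD13 side, and held 7 of the 17 regions, against 3 of SB431542 cells and 1 of SMAD2. A stretch as full occurred in 25.3% of windows.

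Median widths were equal or close to those of the lists. The median member was 138 bp wide for TEAD4 in SB431542 (145 bp over the list), 199 bp for TEAD4 in DMSO (199 bp) and 149 bp for SMAD2 (149 bp). The widest members were a region of 294 bp in HOXD for TEAD4 in SB431542, the 699 bp regions of HOXA and HOXD for TEAD4 in DMSO, and a region of 399 bp in HOXA for SMAD2 (row 16885, 27203651 to 27204049). The width of 699 bp is rare, reached by 0.0968% of the TEAD4 list of DMSO cells. When the widest 1% of that list was removed, 72 of its 76 members remained. Counted in bases, TEAD4 in DMSO covered between 2.29% (HOXA) and 2.90% (HOXD) of the windows. TEAD4 in SB431542 covered 1.60% (HOXB) to 2.14% (HOXC), and SMAD2 2.05% (HOXC) to 3.06% (HOXB).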

How the data were processed

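Per the values in them, the deposited lists place each called region by chromosome and by first and last base, and have no header or score. Each was tied to its sample by antibody target and treatment. Per the submitters' processing notes, positions refer to hg19. Which aligner, caller, threshold and control the authors used is not given in the sources used here. Read depth is therefore unknown. The other 5 of 8 samples were not analysed here.

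Members were found by overlap of at least 1 bp with the cluster windows, and starts are printed raised by 1 bp. The members and the comparisons were chosen with earlier results of these data known. Moved windows, densest stretches (20 kb) and gaps are descriptions, not tests. Intervals are exact binomial (95%). Regions were named by a rule: the lowest and highest row and the widest region of each cluster and list, and every member with a partner. Of the highest rows and the widest regions only the extremes are printed. The stretches, the gaps of fuller windows and the next rows of HOXB and HOXC were described after their values were seen. Sequence and gene positions on hg19 were not used here, and no sequence is printed. Counting functions were tested on simulated data. Python 3.11.15, NumPy 2.4.6, pandas 2.3.3, SciPy 1.17.1 and matplotlib 3.10.9 were used.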

Additional observations from a re-analysis of the deposited data

How the results depend on the processing

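Density ratios to moved windows stayed within their intervals in 129 of 135 recomputations (midpoint inside the window, smaller steps, empty windows kept, windows within 20 Mb, median, first 10% or 50% of rows, bases covered, widest 1% removed). The other 6 all came from the first 10% of rows, where counts were 1 to 10: the ratio was 3.29 for TEAD4 under SB431542 in HOXC, 2.55 for TEAD4 in DMSO in HOXD and 1.27 over the 4 clusters, and for SMAD2 2.01 in HOXB, 0.374 in HOXC and 0.399 in HOXD. The intervals are wide, so that a ratio could change and stay within its own. In the first 50% of rows, TEAD4 under SB431542 had ratios of 1.13 in HOXC (9 regions) and 1.46 in HOXA (13), and SMAD2 1.15 in HOXB (21). These were lower than over all rows (1.60, 1.52 and 1.36). TEAD4 in DMSO rose instead in HOXB (1.07 to 1.36) and HOXC (1.01 to 1.34). Median rows stayed within their intervals in all 6 recomputations. Shared percentages are given in the order SB431542 TEAD4 in DMSO TEAD4, the reverse, DMSO TEAD4 in SMAD2, the reverse, SB431542 TEAD4 in SMAD2, the reverse. With edges within 500 bp they were 19.6, 22.4, 30.3, 18.1, 23.7 and 17.3% in the clusters, against 16.4, 14.7, 22.1, 15.4, 19.7 and 12.4% of the whole lists, and within 1 kb 27.8, 30.3, 42.1, 28.3, 34.0 and 25.2%, against 24.5, 22.4, 34.2, 24.0, 31.5 and 20.4%. These looser rules were added after seeing the data and raise a share by construction. With 50% of both regions required the first 4 were 2.06, 2.63, 1.32 and 0.787% (2, 2, 1 and 1 regions), against 2.51, 2.28, 2.50 and 1.72% of the whole lists. With midpoints within 100 bp the DMSO TEAD4 and SMAD2 shares were 2.63 and 1.57% (2 regions each), against 5.63 and 3.88%. Under both of these rules the shares between TEAD4 and SMAD2 of DMSO cells were below those of the whole lists, whereas with 1 bp of overlap they were above them. In the first 50% of rows the last pair of shares was 0% of 44 and 0% of 58 regions, against 3.32 and 2.06% of the whole lists. Without the widest 1% of regions, the share of SB431542 TEAD4 in DMSO TEAD4 was 4.21% (4 of 95). That was below the 5.97% of the list cut in the same way, whereas over all widths it was above. The reverse share was 5.56% (4 of 72), against 5.33%. No paired analysis was possible because the groups are single libraries, which also means that none could be left out. With depth unknown, a list can miss a bound region, and its absence is not a measured loss.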
